A study of Rattus norvegicus with 22 samples.

Results

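The genes described here make fatty acids and triglycerides in the liver. They are Slc25a1, Acacb, Elovl5, Agpat3 and Dgat2, 5 chosen genes of this pathway that were taken by symbol from the male table, which has 1365 rows. Given further below are other genes of the pathway, such as Gk and Lpin3, that are in the same table. All 5 symbols were found there, each in 1 row, and 0 of the 5 were among the 69 rows of the female table, so the females are not analysed here for them. Livers came from Wistar rats at postnatal day 110. The 6 control males were offspring of mothers on a control diet, and the 5 maternal obesity (MO) males were offspring of mothers on an obesogenic diet. The diet given in the labels is that of the mother. Litters are not named in the labels, and p-values reflect only how these animals varied.

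Fatty acid synthesis in hepatocytes starts from citrate, which is carried out of the mitochondrion and split to acetyl-CoA. Acetyl-CoA is carboxylated to malonyl-CoA and built into fatty acids, which are then elongated and desaturated. Acyl chains are added one after another to a glycerol backbone to give phosphatidic acid, diacylglycerol and finally triglyceride, the form in which the liver stores fatty acids or exports them in lipoproteins. Insulin, sterol regulatory element binding proteins (SREBPs) and the liver X receptor are known to raise transcription of many of these genes.

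Each level was taken as RPM (read counts scaled to the size of each library), a unit inferred from the values, with 1 library per animal. Libraries held 7880000 to 11160000 reads in control males and 10520000 to 11580000 in MO males, as read from the steps between low values. The smallest depth that fitted these steps was taken, since its multiples fit too. Read numbers and counting errors rest on this reading. The lowest value of the 5 genes, for Acacb, stood for about 120 reads, a counting error of about 9.1%, and the highest, for Dgat2, for about 8100 reads. The male table had been selected for a difference. The largest p-value in the authors' deposited table was 0.04964 and the smallest change was 0.48 on the log2 scale. A test of these rows in the same animals therefore repeats the selection, and the p-values below describe the rows and are no independent evidence. Of the rows, 96.5% passed the limma threshold (adjusted p under 0.05 over the table) as lower in MO males, and the median log2 fold change of all rows was -0.58. Rows stand for transcripts, and rows of the same symbol can differ, as for Cenpl at -0.98 and 0.77. Any other transcript of the 5 genes was not listed, so the levels below are those of the listed transcript. The control libraries were not alike in Rmrp, an RNA without a poly(A) tail. It was at 36.9 to 51.2 RPM in controls 2, 3, 4 and 6, at 1.20 and 1.52 RPM in controls 1 and 5, while the MO males had 1.71 to 3.11 RPM, so changes against controls 1 and 5 alone are given as well. None of the 8 hepatocyte markers looked for was in the table. The bile acid and very long chain acyl-CoA synthetase Slc27a5, known for its liver expression, was there at 534 to 1087 RPM in controls and 459 to 759 RPM in MO males.

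Promoter sequence is shown as a description, because several of the 5 genes are known targets of SREBPs. The RefSeq table of assembly GRCr8 held a window for 4 of the 5 genes, all but Dgat2. The 250 bases before each start were searched on both strands for the E-box CACGTG, the CCAAT box, the GC box GGGCGG, an SRE-like element TCACNCCAC, direct repeats of AGGTCA with 4 or 1 bases between them, and the TATA box TATAAA. Capitals mark the matches, and no 2 matches overlapped. On the other strand the CCAAT box reads as ATTGG and the GC box as CCGCCC. The Slc25a1 window lies at chr11:96559804-96560053 (plus strand), the Acacb window at chr12:48138215-48138464 (minus strand) and the Elovl5 window at chr8:87670914-87671163 (plus strand), each printed 5′ to 3′ in the direction of the gene.
Slc25a1: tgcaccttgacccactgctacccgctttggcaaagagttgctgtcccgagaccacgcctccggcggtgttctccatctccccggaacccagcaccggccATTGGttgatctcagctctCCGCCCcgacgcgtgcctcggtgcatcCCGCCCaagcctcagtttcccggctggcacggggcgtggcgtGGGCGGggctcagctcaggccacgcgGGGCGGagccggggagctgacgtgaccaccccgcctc
Acacb: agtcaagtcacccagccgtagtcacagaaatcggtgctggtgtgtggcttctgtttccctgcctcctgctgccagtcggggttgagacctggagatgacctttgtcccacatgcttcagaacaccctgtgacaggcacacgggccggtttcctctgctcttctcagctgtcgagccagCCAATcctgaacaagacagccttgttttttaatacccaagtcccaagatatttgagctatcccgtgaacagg
Elovl5: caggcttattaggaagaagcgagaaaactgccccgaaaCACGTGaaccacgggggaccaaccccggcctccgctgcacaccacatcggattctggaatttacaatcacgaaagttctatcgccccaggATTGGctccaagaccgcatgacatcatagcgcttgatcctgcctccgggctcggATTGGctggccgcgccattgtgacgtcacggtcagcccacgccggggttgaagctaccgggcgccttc

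The Elovl5 window held an E-box, 212 to 207 bases before the start, a motif found in 5.59% of all 33469 windows of the table and in 8.7% of the windows of genes in the male table. It also held 2 CCAAT boxes, from 122 and from 68 bases before the start. Acacb had 1 CCAAT box from base 72 and Slc25a1 had 1 from base 151. This motif was in 34.0% of all windows and in 40.5% of the windows of genes in the male table. Slc25a1 had 4 GC boxes, a motif of 30.5% and 56.6% of these windows, and its 250 bases had a GC content of 69.6% against a median of 51.2%. The Agpat3 window had 0 matches. The SRE-like element, in 0.974% of all windows and 1.45% of those of the male table, was in 0 of the 4 windows. The same held for the TATA box (12.9% and 8.21%) and for the direct repeats with 4 bases (0.00299% of all windows) or 1 base (0.0508%) between them. These are matches of letters within a short window and say nothing about the binding of a factor.

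All 5 genes were lower in MO than in control males, with mean levels 31.6% to 53.5% below the control mean. Elovl5 and Acacb showed the largest decreases, to about 0.465 and 0.49 of the control mean, followed by Agpat3 at 0.587, Dgat2 at 0.588 and Slc25a1 at 0.684. In every gene 5 of 5 MO animals were below the control mean, which was so in 94.2% of all rows. In 0 of the 5 genes was every MO animal below every control, a separation that 29.9% of all rows showed. The median log2 fold change of the 5 genes was -0.74, against -0.58 for all rows, and 4 of the 5 were below that median. In bulk tissue, fewer cells of a type and less RNA per cell cannot be told apart.

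**Figure D1:**
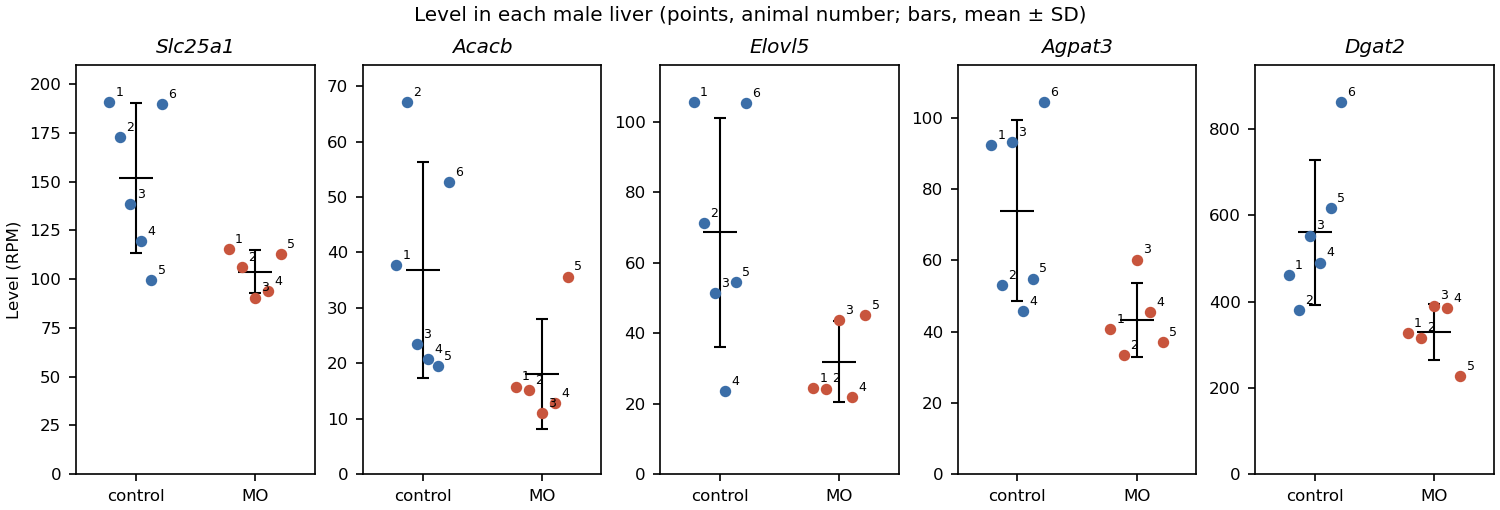
Level in RPM (vertical axes from 0, 1 scale per gene) of the 5 genes in each male liver, with points for animals, the animal number beside each, and the mean ± SD of 6 control and 5 MO males. The groups overlap in every gene, and MO male 5 is at 35.6 RPM of Acacb while the other MO males are at 15.8 RPM or less.

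Slc25a1, the citrate carrier of the inner mitochondrial membrane on chromosome 11, supplies the cytosol with the carbon for fatty acids. It was at 190.6, 173.0, 138.3, 119.4, 99.4 and 189.8 RPM in control males 1 to 6 and at 115.4, 106.2, 90.5, 94.0 and 113.0 RPM in MO males 1 to 5. Controls 1, 2 and 6 were high, control 5 lay within the MO range, and the other 5 controls were above every MO animal. The mean was 151.8 ± 38.4 RPM (SD, n = 6) in controls and 103.8 ± 11.2 RPM (SD, n = 5) in MO males. The change was -0.51 ± 0.19 log2 units (SE; limma adjusted p = 0.015), the smallest of the 5 genes, and close to the smallest change that the table lists. In the exact two-sided permutation test over all splits of the animals p was 0.030, and 95.3% of all rows had an unadjusted p under 0.05 in this test as lower. Against controls 1 and 5 alone the change was -0.41 ± 0.25 (SE; limma adjusted p = 0.14), where 36.1% of all rows passed as lower.

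Acacb on chromosome 12 encodes the acetyl-CoA carboxylase of the outer mitochondrial membrane. Its malonyl-CoA is known to inhibit carnitine palmitoyltransferase and so the entry of fatty acids into oxidation. It was at 37.8, 67.1, 23.4, 20.8, 19.5 and 52.7 RPM in control males 1 to 6 and at 15.8, 15.1, 11.03, 12.8 and 35.6 RPM in MO males 1 to 5. The controls were spread widely, with controls 2 and 6 high and controls 3, 4 and 5 near 20 RPM. MO males 1 to 4 were below every control, and MO male 5 was above those 3 controls. The mean was 36.9 ± 19.5 RPM (SD, n = 6) against 18.1 ± 10.0 RPM (SD, n = 5). On the log2 scale the change was -0.96 ± 0.30 (SE; limma adjusted p = 0.0093). The exact permutation test gave p = 0.052, so Acacb did not pass it, whereas 94.7% of all rows passed it as lower after adjustment. In the authors' deposited table its p-value was 0.04596, near the limit for listing. Against controls 1 and 5 alone the change was -0.69 ± 0.35 (SE; limma adjusted p = 0.099).

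Elovl5 on chromosome 8 elongates polyunsaturated fatty acids in the endoplasmic reticulum, and it is the gene whose window above holds the E-box. It was at 105.5, 71.2, 51.4, 23.6, 54.5 and 105.4 RPM in control males 1 to 6 and at 24.4, 24.3, 43.8, 21.8 and 45.2 RPM in MO males 1 to 5. Controls 1 and 6 were the highest and control 4 was as low as MO males 1, 2 and 4, while the other 5 controls were above every MO animal. The MO males themselves fell into 3 low values and 2 near 44 RPM. The mean was 68.6 ± 32.4 RPM (SD, n = 6) against 31.9 ± 11.6 RPM (SD, n = 5). Its change of -0.99 ± 0.30 log2 units (SE; limma adjusted p = 0.0082) was the largest of the 5 genes, with an exact permutation p of 0.037. Without control 4 it was -1.26, and against controls 1 and 5 alone -1.29 ± 0.32 (SE; limma adjusted p = 0.012).

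Agpat3 on chromosome 20 is an acyltransferase that turns lysophosphatidic acid into phosphatidic acid, the shared precursor of triglycerides and phospholipids. It was at 92.2, 53.1, 93.2, 45.6, 54.9 and 104.3 RPM in control males 1 to 6 and at 40.7, 33.3, 60.2, 45.5 and 37.1 RPM in MO males 1 to 5. Controls 1, 3 and 6 were well above the other 3 controls, and MO male 3 reached into the control range with MO male 4 just below it. The mean was 73.9 ± 25.4 RPM (SD, n = 6) against 43.4 ± 10.4 RPM (SD, n = 5). This was a difference of -0.71 ± 0.22 log2 units (SE; limma adjusted p = 0.0092), and the exact permutation p was 0.037. Against controls 1 and 5 alone it was -0.73 ± 0.26 (SE; limma adjusted p = 0.040).

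Dgat2 on chromosome 1 catalyses the last step, the joining of an acyl-CoA to diacylglycerol to make triglyceride. It was at 460.6, 380.9, 553.0, 490.7, 616.0 and 861.8 RPM in control males 1 to 6 and at 326.9, 316.7, 390.8, 384.5 and 228.0 RPM in MO males 1 to 5. Control 6 was the highest and MO male 5 the lowest. The groups nearly separated: control 2 alone was within the MO range, and MO males 1, 2 and 5 were below every control. The mean was 560.5 ± 168.0 RPM (SD, n = 6) against 329.4 ± 65.7 RPM (SD, n = 5). This was a difference of -0.74 ± 0.21 log2 units (SE; limma adjusted p = 0.0064). Its exact permutation p of 0.0087 was the smallest of the 5 genes, where 0.0022 is the smallest that 6 against 5 animals can give. Against controls 1 and 5 alone it was -0.72 ± 0.24 (SE; limma adjusted p = 0.035).

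Leaving out each male in turn kept all 5 genes lower and past the limma threshold, as it did 1282 to 1364 of the 1365 rows. The log2 fold change then ranged from -0.62 to -0.44 for Slc25a1, from -1.22 to -0.76 for Acacb, from -1.26 to -0.84 for Elovl5, from -0.84 to -0.60 for Agpat3 and from -0.84 to -0.61 for Dgat2. The scaling of the libraries mattered more. The median log2 level of the listed rows was 4.29 to 4.92 in control libraries and 3.72 to 4.06 in MO libraries, a mean gap of 0.58, and control 6 had the highest. When each library was centred on that median, the log2 fold changes were -0.37 ± 0.355 for Acacb, -0.41 ± 0.315 for Elovl5, -0.13 ± 0.16 for Agpat3, -0.16 ± 0.14 for Dgat2 and 0.08 ± 0.17 for Slc25a1 (SE). None of the 5 then passed (limma adjusted p = 1.0 each), and 1.76% of all rows passed as lower. Centring adds the same amount, 0.585, to the change of every row. It therefore cannot alter the order of the 5 genes, and Slc25a1, with a decrease smaller than 0.585, changed sign. Centring on rows that were chosen for a difference, 1317 of them lower and 48 higher, takes out part of any change most of them share, so neither scale is free of the selection.

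**Figure D2:**
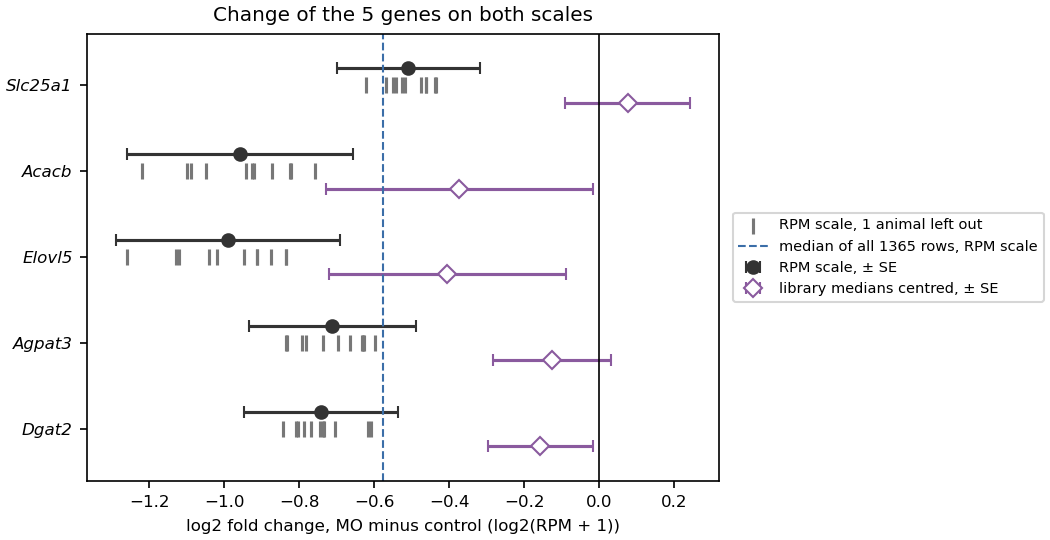
log2 fold change (horizontal axis, MO minus control males) of the 5 genes on the RPM scale (circles, ± SE), with 1 animal left out (ticks) and with library medians centred (diamonds, ± SE). Circles lie between -0.99 and -0.51 around or below the median of all rows at -0.58 (dashed), while diamonds lie between -0.41 and 0.08.

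The 5 genes varied unequally among controls. The control SD on the log2 scale was 0.79 for Elovl5 and 0.73 for Acacb, larger than in 98.8% and 97.9% of all rows. It was 0.51 for Agpat3, 0.40 for Dgat2 and 0.38 for Slc25a1, against a median of 0.31 over all rows. A row with a wide spread had to differ more between the groups to be listed, so spread and change are coupled in this table. The highest control was 4.47 times the lowest for Elovl5, 3.44 times for Acacb, 2.28 times for Agpat3, 2.26 times for Dgat2 and 1.92 times for Slc25a1. Counting error at these depths was at most about 9.1%.

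The animals that were high in one gene were not always high in another. With the group means removed, Slc25a1 and Acacb varied together over the 11 males (Pearson r = 0.78, exact permutation p within groups = 0.012, adjusted over the 10 pairs 0.12). Spearman's rho of this pair was 0.86 (exact permutation p = 0.0047, adjusted 0.047), and without controls 4 and 5, the 2 animals farthest from the median of Slc25a1, r was 0.70. In both genes controls 1, 2 and 6 were above their group mean and controls 3, 4 and 5 below it. On the RPM scale this pair passed by rho alone and not by r, and the other 9 pairs did not pass by either measure. Elovl5 had r = 0.60 with Slc25a1 and with Acacb and 0.63 with Agpat3 (exact permutation adjusted p = 0.23 each). For these pairs Spearman's rho was 0.60, 0.54 and 0.50 (exact permutation adjusted p = 0.23, 0.27 and 0.29), and without the 2 farthest animals r was 0.56, 0.63 and 0.37. Agpat3 and Dgat2 had r = 0.55 and rho = 0.65 (exact permutation adjusted p = 0.23 for both), with r at 0.36 to 0.68 with 1 male left out and at 0.21 without both control 6 and MO male 3. Dgat2 had r = -0.41 and rho = -0.45 with Acacb (exact permutation adjusted p = 0.41 and 0.32), and r was -0.93 to -0.17 with 1 male left out. The lowest value was without control 6, and without both MO male 5 and control 2 r was 0.36. With Slc25a1, Dgat2 had r = -0.17 and rho = -0.32 (exact permutation adjusted p = 0.85 and 0.53). After centring of the libraries r was 0.84 for Slc25a1 with Acacb, -0.79 and -0.72 for Dgat2 with Slc25a1 and Acacb, and -0.073 for Agpat3 with Dgat2, so the relations of Dgat2 depend on the scaling. These values after centring are given without a test. MO male 5, the highest MO animal in Acacb and Elovl5, was the lowest in Dgat2.

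**Figure D3:**
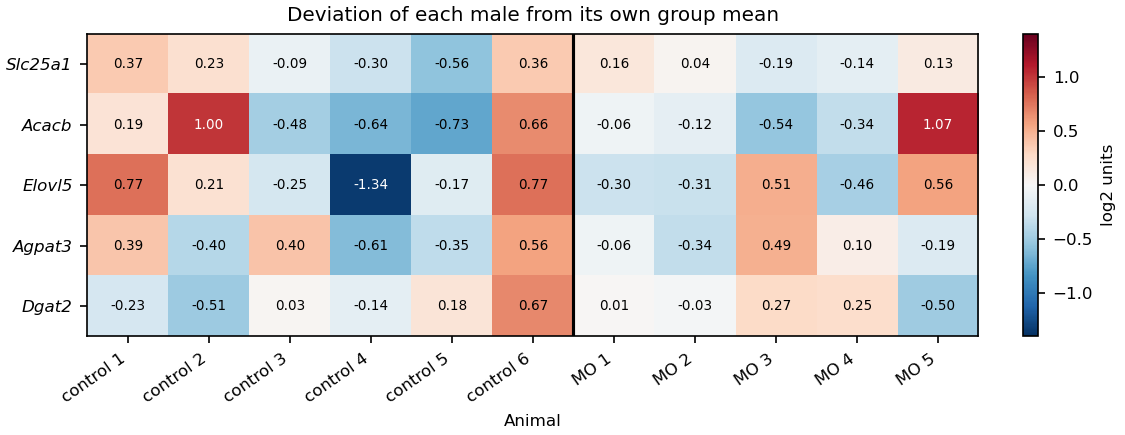
Deviation of each male from the mean of its own group on the log2 scale (colour and number), for 5 genes (rows) and 11 animals (columns, controls left of the line). Slc25a1 and Acacb share their high and low controls, and MO male 5 is 1.07 above its group mean in Acacb and -0.50 in Dgat2.

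The rows most like each gene over the 11 males, by Pearson r with group means removed, are given as a description. They share the library with the gene, and they were picked for this r. For Slc25a1 they included the transcription factor Hes6 (r = 0.90) and Socs2, an inhibitor of growth hormone signalling (0.89). For Acacb they were the endocytic receptor Lrp2 (0.85), the pyruvate dehydrogenase kinase Pdk4 (0.84) and the matrix protein Fbn1 (0.84). For Elovl5 they were Fam210b (0.94), the ATP-gated channel P2rx7 (0.89) and RGD1305807 (0.88). The median r over all rows was 0.20 for Slc25a1, -0.02 for Acacb and 0.21 for Elovl5, but 0.54 for Agpat3 and 0.55 for Dgat2. The latter pair thus followed the bulk of the listed rows, and their nearest rows were the protease Furin (0.97), the Mediator subunit Med16 (0.95) and the guanylate cyclase subunit Gucy1b2 (0.94) for Agpat3. For Dgat2 they were the glycosyltransferase Pomgnt1 (0.95), Tspan31 (0.94) and Pycrl (0.93).

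Of 151 genes in 10 lists of lipid synthesis and its supply and control, 21 were in the male table, and 16 of these were not among the 5 genes. Of the 16, 13 were lower and 3 higher in MO males, all past the limma threshold as were 100% of the rows, so that counts of lower and higher genes follow the listing. The median log2 fold change of the 21 was -0.58, as for all rows. By step, 2 of 8 genes of fatty acid synthesis were listed (Slc25a1 and Acacb), 2 of 18 of elongation and desaturation, 4 of 19 of triglyceride synthesis, 1 of 11 of acyl-CoA supply and 2 of 21 of phospholipid synthesis. Storage and hydrolysis of triglyceride had 3 of 21, transcription factors and regulators 3 of 23, kinase control 2 of 13, citrate supply 2 of 12 and the carnitine shuttle 0 of 5. Genes outside the table, such as Fasn, Acaca, Acly, Scd, Srebf1 and Mlxipl, are not analysed here.

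**Figure D4:**
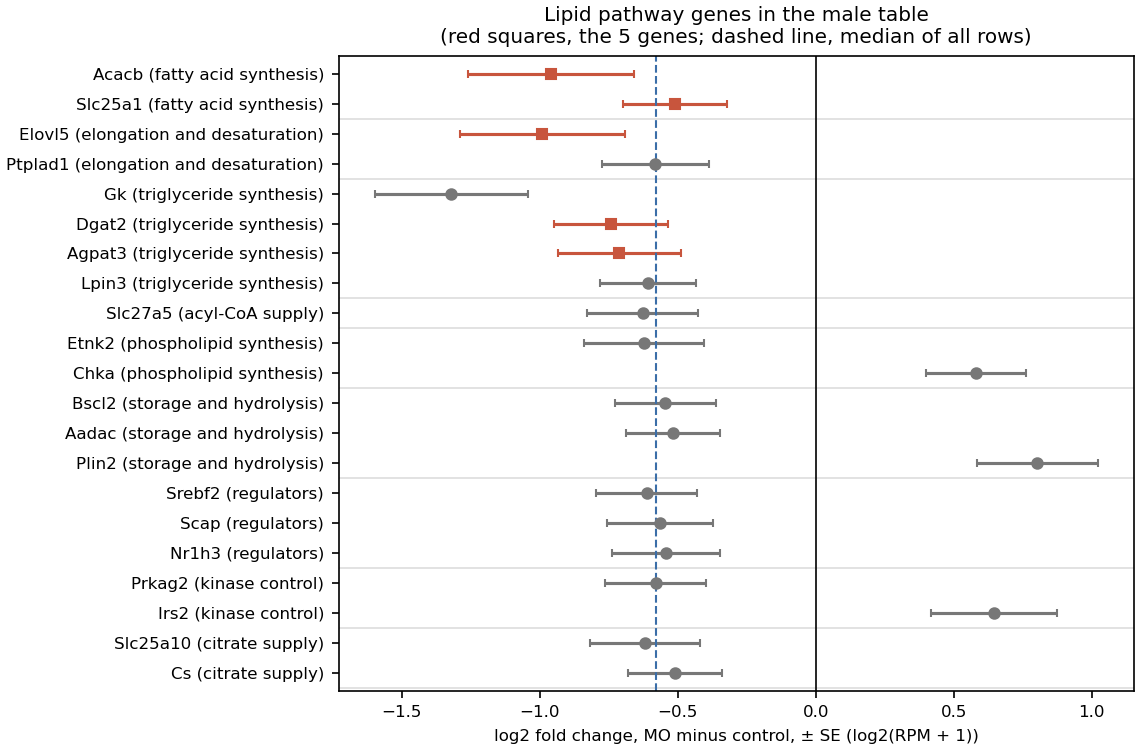
log2 fold change ± SE (horizontal axis, MO minus control males) of the 21 lipid genes in the male table, by list, with the 5 genes as red squares and the median of all rows dashed. Gk lies lowest at -1.32, and Chka, Irs2 and Plin2 are the 3 genes above 0.

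Gk, glycerol kinase, which makes the glycerol 3-phosphate on which triglycerides are built, had the largest decrease of the 21. It was at 343, 153, 451, 311, 365 and 425 RPM in control males 1 to 6 and at 87.7, 78.6, 212, 201 and 119 RPM in MO males 1 to 5. Control 2 alone lay within the MO range. The difference on the log2 scale was -1.32 ± 0.28 (SE; limma adjusted p = 0.0016), and -0.74 ± 0.26 (SE; limma adjusted p = 0.19) after centring. The other 12 lower genes changed by -0.63 to -0.51, close to the median of all rows. They were Ptplad1 (now Hacd3), the dehydratase of the elongation cycle that Elovl5 starts, the phosphatidate phosphatase Lpin3, Slc27a5 and the ethanolamine kinase Etnk2. The lipid droplet protein Bscl2 (seipin) and the esterase Aadac followed. Of regulators there were Nr1h3 (the liver X receptor alpha), Srebf2 and Scap, the escort of SREBPs, and of kinases Prkag2, a subunit of AMP-activated protein kinase. The mitochondrial dicarboxylate carrier Slc25a10 and the citrate synthase Cs completed them. In 4 of the 13 lower genes, Ptplad1, Bscl2, Slc25a10 and Cs, every MO animal was below every control, against 29.9% of all rows. After centring 7 of these 12, among them Nr1h3 and Scap, had changes above 0, as had 659 of the 1317 rows that were lower on the RPM scale, and none of the 13 lower genes passed. Against controls 1 and 5 alone 6 of the 16 genes passed, against 38.9% of all rows.

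The 3 higher genes also passed after centring, as did all 48 of the 48 higher rows of the table (3.52% of all rows), since centring moves every change up. Plin2, a coat protein of lipid droplets, was at 209, 253, 328, 258, 186 and 291 RPM in control males 1 to 6 and at 383, 291, 535, 729 and 363 RPM in MO males 1 to 5, with 4 of 5 MO animals above every control. The difference on the log2 scale was 0.80 ± 0.22 (SE; limma adjusted p = 0.0058). Chka, choline kinase of phosphatidylcholine synthesis, was at 66.0, 64.0, 60.9, 60.1, 45.9 and 69.9 RPM in controls and at 133, 75.8, 92.1, 74.5 and 91.2 RPM in MO males. Every MO animal was above every control, as in 10 of the 48 higher rows (0.58 ± 0.18, SE; limma adjusted p = 0.0091). Irs2, an insulin receptor substrate, was at 17.8, 9.99, 19.4, 12.3, 19.2 and 26.6 RPM in controls and at 34.9, 19.7, 19.0, 32.9 and 31.9 RPM in MO males. In Irs2 3 of 5 MO animals were above every control (0.65 ± 0.23, SE; limma adjusted p = 0.012), and against controls 1 and 5 alone Irs2 did not pass (0.51, limma adjusted p = 0.096).

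Of 55 genes in 9 lists of markers of liver and other cells 5 were in the male table. All 5 were lower, by -0.70 to -0.60 on the log2 scale, as were 96.5% of all rows, and after centring they lay at -0.12 to -0.02 (limma adjusted p = 1.0 each). Of the 8 adipocyte markers Cfd alone was listed, at 9.09 to 16.7 RPM in controls and 6.08 to 14.0 RPM in MO males. The stellate cell and fibroblast markers Pdgfrb and Des (2 of 8) summed to 22.3 to 27.8 RPM and 12.7 to 16.4 RPM. The bile duct markers Krt19 and Epcam (2 of 5) summed to 11.4 to 18.0 RPM and 6.17 to 13.4 RPM. Of the genes listed for muscle, Kupffer cells, endothelium, red cells and acinar pancreas 0 were in the table, and other markers of these cells were not looked for. The part of other cells in the decreases of the 5 genes was not tested.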

How the data were processed

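Per the submitters' processing notes, STAR 2.3.1j, Partek and genome build rn5 were used, with no role given. How reads were counted, and on which annotation, is not given in the sources used here. Values deposited by the authors were taken as RPM with 1 added, which was inferred, as no unit stands in the headers. Values started at 1, and 81.4% to 86.6% of those under 9 RPM came to whole reads (within 0.02 reads) after division by the library's step, too few for a test on counts. The authors' deposited p-value is unadjusted, and their fold column is the size of a log2 difference, which the values gave back for 1365 of 1365 male rows. Of these rows, 18 list a transcript a second time.

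All male rows were fitted together in R 4.3.3 by limma 3.58.1 with a mean-variance trend, on log2(RPM + 1), a pseudocount of 1, without a filter. P-values were adjusted by the Benjamini-Hochberg procedure over the table at a threshold of 0.05. This scale understates changes of low genes, and a spread estimated from selected rows makes p-values too small. The fit was tested on simulated data in which 200 of 1365 rows changed, equally often up and down. It made 201 calls, 11 of them false, and recovered 91% of the changes of 1 log2 unit. The simulation had independent noise, no shift of libraries and no selection of rows, so it says nothing about the effect of these on the fit. Exact permutation tests used Python 3.11.15 and numpy 2.4.6. The alternatives were a pseudocount of 0.25, a minimum mean of 5 RPM, centred libraries, no trend, an exact permutation test, a replicate block, each male left out, controls 1 and 5 alone and 1 row per transcript.

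The genes and lists were chosen with earlier results of these data known. Named genes were the 5 members, the list genes in the table (in full where the change was at least 0.8 on the log2 scale or higher in MO males, the rest by range) and the 3 rows most like each member. Some of the genes these rules name, with the lists they stood in, are not reported here. Rmrp, Socs2 and Slc27a5 were singled out after their values were seen. Chromosomes are those of the deposited table. Promoter sequences are from RefSeq (GRCr8).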

Additional observations from a re-analysis of the deposited data

Results flagged for a closer look

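Acacb in MO male 5 was at 35.64 RPM, far from the other MO males, the nearest of which was at 15.8 RPM. The gap in RPM was 0.807 of the range of the 5 MO males, above the critical value of 0.71 of Dixon's test. It was the 1 value so found in 18 sets of values examined, each of 1 gene in 1 group of animals. Chance flags about 1 in 20 sets, and the same animals recur in these sets. On the log2 scale of the fits, deviations from the group mean were 1.07 in MO male 5, -0.06 in MO male 1 and -0.54 in MO male 3. The gap is a smaller part of the range there, so the flag is for the RPM scale. Without MO male 5 the log2 fold change of Acacb was -1.22 (limma adjusted p = 0.0045) in place of -0.96.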

How the results depend on the processing

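The 5 genes kept their direction and their side of the limma threshold with a pseudocount of 0.25, a minimum mean of 5 RPM, no trend, 1 row per transcript and each male left out. With library medians centred, 72 of the 1365 rows passed, 48 higher and 24 lower. Slc25a1 then changed sign (0.0757), and Acacb (-0.373), Elovl5 (-0.405), Agpat3 (-0.127) and Dgat2 (-0.157) no longer passed. The other genes that changed sign under centring were Ptplad1 (0.00407), Aadac (0.0683), Bscl2 (0.0404), Scap (0.0218), Nr1h3 (0.0422), Prkag2 (0.00426) and Cs (0.0737). Centring subtracts a shift shared by the listed rows, which by itself moves every change up. Against controls 1 and 5 alone 531 rows passed, 38 of them higher, and Slc25a1 (-0.411) and Acacb (-0.687) did not. That fit had 7 animals in place of 11. Under the exact permutation test Acacb did not pass (-0.958, adjusted p = 0.052). Leaving out 1 male left 1282 to 1364 rows past the threshold.

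Apart from that of control 6, the replicate numbers are shared by both groups, and same-numbered animals deviated together with r of -0.098 to 0.154. Of the 5 MO males 0 correlated best with the control of its own number. The labels give no meaning to the number, and whether same-numbered animals shared a batch or a litter was not tested. With the replicate block 1344 rows passed. The 5 genes were at -0.437 (Slc25a1), -0.826 (Acacb), -0.835 (Elovl5), -0.599 (Agpat3) and -0.608 (Dgat2), all past the threshold. Control 6 has no MO male of its number, so the block took it out of the comparison. Leaving out control 6 without a block gave the same 5 changes. With the same 5 numbers in both groups this equality is fixed by the design, so it says nothing about a shared batch or litter. At depths of 7880000 reads or more the counting error of the 5 genes was at most about 9.1%.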

Other observations

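Acacb and Pdk4 went opposite ways between the groups and the same way within them. Pdk4 was at 16.4, 18.3, 14.5, 11.5, 10.6 and 18.2 RPM in control males 1 to 6 and at 53.3, 33.1, 38.6, 47.4 and 80.3 RPM in MO males 1 to 5. Every MO male was thus above every control, with a log2 fold change of 1.66, while Acacb was lower. Yet controls 1, 2 and 6 had the most of both transcripts among controls, and MO male 5 had the most of both among MO males (r = 0.84 with group means removed, rho = 0.85, n = 11). With each animal left out r stayed between 0.75 and 0.94, and it was 0.87 after centring. Pdk4 was picked from 1365 rows for this likeness, so r is a description. Socs2 stood in the same way to Slc25a1, higher by 2.23 on the log2 scale in MO males and with r of 0.89 within the groups.

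In females the 1 listed gene of the lipid lists was Pparg, a nuclear receptor that drives fat storage. It was at 0.00088 to 0.342 RPM in control females (median 0.0102, n = 6) and at 0.069 to 1.2 RPM in MO females (median 0.767, n = 5). In 5 of the 6 control females and 1 of the 5 MO females this was under the 0.0863 RPM that 1 read was worth in the deepest male library, and the depth of the female libraries was not computed, so no difference is read from these values.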
